A study of Mus musculus with 96 samples.

Results

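The transcripts of 7 genes that carry iron into the cell, store it, export it and sense it were followed across 48 single mouse embryonic stem (ES) cells. The genes were taken by symbol from the deposited count table: Tfrc, Slc11a2, Fth1, Ftl1, Slc40a1, Ireb2 and Aco1. All 7 symbols had a row, among 23284 gene rows in all.

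The cells were J1 ES cells, an established mouse line, at passage 12 to 20, grown without feeder cells in medium with 15% fetal bovine serum and leukaemia inhibitory factor (LIF) at 1000 U per ml. Single cells were captured on a Fluidigm C1 chip, their cDNA was made and amplified on the chip with a SMARTer kit, and only cDNA samples that had amplified well went on to Nextera XT libraries. Each library was read on 2 lanes, which gave 96 samples, and the lanes were summed per cell. All cells belong to 1 group, serum ES cells, and nothing in the labels ties a cell to a culture. Nothing below therefore compares conditions, and no p-value reaches beyond these cells.

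Cells take up iron mostly as transferrin bound to the transferrin receptor, the product of Tfrc. The complex enters endosomes, where the transporter encoded by Slc11a2 (DMT1) moves ferrous iron into the cytosol. Iron that is not used is laid down in ferritin, a hollow shell of heavy chains (Fth1), which oxidise iron, and light chains (Ftl1), which help to form its mineral core. Ferroportin, encoded by Slc40a1, is the known exporter of iron from mammalian cells. The iron regulatory proteins, encoded by Aco1 and Ireb2, bind stem-loops in mRNA called iron-responsive elements when iron is scarce. Bound in a 5′ untranslated region they block translation, as in ferritin mRNA, and bound in the 3′ untranslated region of Tfrc mRNA they slow its decay. Much of the control of ferritin therefore acts on translation and is not visible in a count of mRNA reads.

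The elements carried by the members are shown because they place these transcripts under the same pair of regulators. They were found in GENCODE M21 transcripts (build GRCm38, whereas the submitters' processing notes name mm9) by searching the transcript strand for a C, 5 bases, the loop CAGTGN with N other than G, and 5 bases that pair with the first 5, G-T pairs allowed. Capitals mark the loop, and 29 bases are printed for each element, 5′ to 3′ in the sense of the mRNA.
Fth1, 5′ untranslated region, chr19:9982732-9982760 (+): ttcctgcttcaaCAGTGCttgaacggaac
Ftl1, 5′ untranslated region, chr7:45459779-45459807 (-): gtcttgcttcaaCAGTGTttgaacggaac
Slc40a1, 5′ untranslated region, chr1:45925465-45925493 (-): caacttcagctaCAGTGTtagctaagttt
Tfrc, 3′ untranslated region, element 1, chr16:32631219-32631247 (+): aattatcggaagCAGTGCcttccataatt
Tfrc, 3′ untranslated region, element 2, chr16:32631598-32631626 (+): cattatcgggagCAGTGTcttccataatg
Tfrc, 3′ untranslated region, element 3, chr16:32631663-32631691 (+): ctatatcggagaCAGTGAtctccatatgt
Tfrc, 3′ untranslated region, element 4, chr16:32631710-32631738 (+): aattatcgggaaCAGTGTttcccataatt

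Tfrc had 4 matches, all in the 3′ untranslated region, and Fth1, Ftl1 and Slc40a1 had 1 each, all in the 5′ untranslated region. The letters searched were not found in the untranslated regions of Slc11a2, Ireb2 or Aco1. The search asked for an exact loop and an unbroken paired stem, so an element of another form would be missed. The lack of a match therefore does not show that the transcripts of these genes carry no element or escape the regulators. Over all annotated coding genes a match stood in the 5′ untranslated region of 21 of 20873 genes (0.101%) and in the 3′ untranslated region of 98 of 20981 genes (0.467%), over regions of unequal length. A match describes the sequence and is not a measurement of binding.

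The cells had between 4408953 and 9767245 reads in genes, with a median of 7054853, and between 8039 and 10291 genes with a read. The lanes of a cell differed by no more than counting noise: the chi-square index ran from 0.964 to 1.05, and no cell of 48 was called after Benjamini-Hochberg adjustment, with 1 at an unadjusted p under 0.05. For every member the spread between lanes was small beside the spread between cells; for Tfrc the SD on the log2 scale was 0.112 between lanes and 2.14 between cells. Lanes read the same amplified library again, so their spread holds sequencing noise only, and noise from capture and amplification is part of the spread between cells. Clustering without the iron genes gave 35 cells with naive pluripotency markers (naive-like) and 13 cells with markers of primitive endoderm (endoderm-like). The summed level of 13 naive markers overlapped, at 575 to 6324 CPM in the naive-like and 187 to 1741 CPM in the endoderm-like cells, all of which had at least 5 reads of Zfp42. Klf4 alone among these markers had the higher median in endoderm-like cells, at 107 CPM against 74.4 CPM. Tbx3 had at least 5 reads in 13 of 13 endoderm-like cells and in 22 of 35 naive-like cells. The summed level of 12 primitive endoderm markers was 45.4 to 1391 CPM in the naive-like cells and 10440 to 38600 CPM in the endoderm-like cells, where CPM is reads relative to the scaled library total. The 7 trophectoderm markers summed to 0.927 to 1924 CPM and to 202 to 3900 CPM in the same order. Of these the keratins Krt8 and Krt18 had higher medians in endoderm-like cells and Tfap2c in naive-like cells, with Cdx2 at 0 reads. What part such marker genes have in the differences between clusters given below was not tested. Erythroid and fibroblast markers, each a list of 7 genes, both had a median sum of 0 CPM in each cluster, and the haemoglobin genes Hba-a1 and Hbb-b1 had 0 reads in all 48 cells.

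Ferritin light chain was the most abundant member per length of transcript. Divided by the exon length in GENCODE M21, mean levels over 48 cells were 4965 CPM per kb for Ftl1 and 879 CPM per kb for Fth1. Tfrc followed at 63.1 CPM per kb, Ireb2 at 25.5 and Aco1 at 16.9. Slc11a2 at 6.58 CPM per kb and Slc40a1 at 4.55 CPM per kb were the lowest. The spread over cells separated Ftl1 from Fth1 and both from the rest, whereas from Tfrc downward the ranges of neighbours in this order overlapped. Amplified cDNA without molecular identifiers can favour some transcripts, so the order between genes is a description of these libraries.

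**Figure D1:**
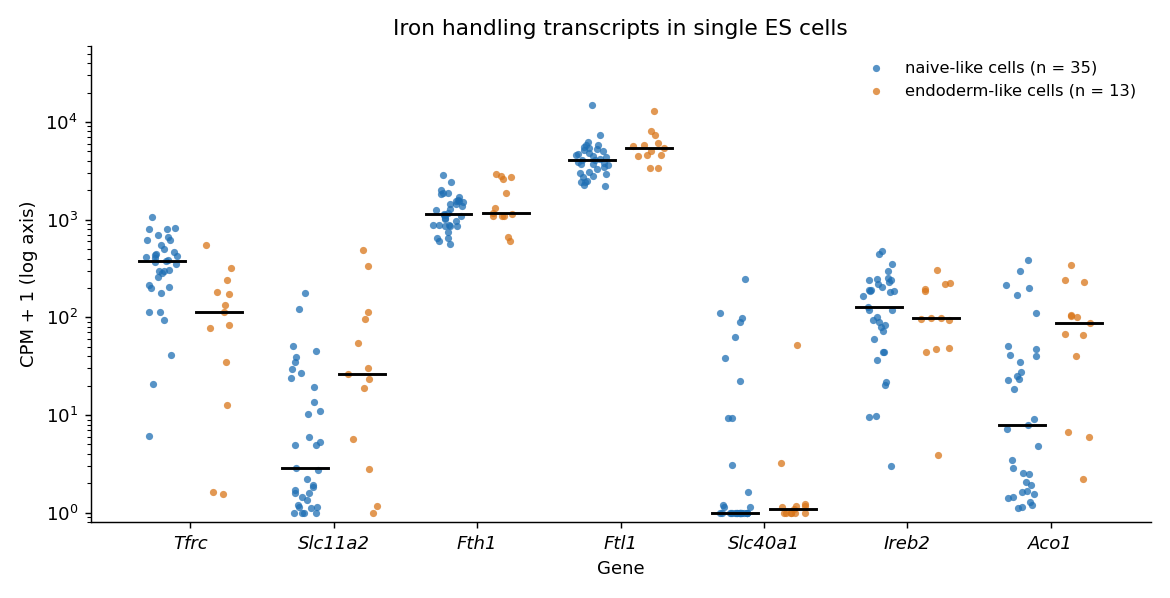
Level of each iron handling gene in single ES cells, as CPM + 1 on a log axis, for 35 naive-like and 13 endoderm-like cells. Each point is 1 cell and each bar is a median. The ferritin genes lie in narrow bands above 500 CPM, whereas Tfrc, Slc11a2, Slc40a1, Ireb2 and Aco1 spread over 2 or more orders of magnitude.

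Tfrc, the uptake receptor, ranged over more than 3 orders of magnitude. In naive-like cells its level was 5.15 CPM in the lowest cell, 377 CPM at the median and 1074 CPM in the highest cell, with a mean of 395 ± 252 CPM (SD, n = 35 cells). In endoderm-like cells the corresponding values were 0.547, 112 and 553 CPM, with a mean of 148 ± 156 CPM (SD, n = 13 cells). The clusters overlapped widely, yet 12 of the 13 endoderm-like cells lay below the naive-like median, and 8 naive-like cells lay above the highest endoderm-like cell. The mean log2 value, log2(CPM + 1), was 2.23 lower in endoderm-like cells, where the median over all genes tested was 0.145 lower. This difference carries no test, because the clusters were made from the same counts, and its direction was the same under 4 ways of scaling.

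A few cells had almost no Tfrc reads. In 3 cells the level was under 10 CPM: the endoderm-like cells 3 and 33, at 0.547 and 0.617 CPM, and the naive-like cell 30, at 5.15 CPM. In the same order, Fth1 and Ftl1 together stood at 6369, 15743 and 5117 CPM in these cells. Ferritin reads are far more numerous, so they do not show whether a transcript at the level of Tfrc was captured. The cells had 8150, 8420 and 9540 genes with a read, beside a median of 9015.5 over all cells. What part capture had in the low Tfrc values was not tested. Thinned to 4408953 reads, 46 of 48 cells held at least 5 Tfrc reads, or 95.8% with an exact Clopper-Pearson 95% interval of 85.7% to 99.5%. The reads carry no molecular identifiers. Such intervals cover only the sampling of cells, taken as independent draws, and the cells are not replicates.

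Slc11a2, the endosomal iron transporter, was low in most cells and high in a few. Its level was 0, 1.90 and 176 CPM in the lowest, median and highest naive-like cell, and 0, 25.3 and 492 CPM in the endoderm-like cells. The clusters overlapped over nearly the whole range, and 10 of 13 endoderm-like cells lay above the naive-like median. The 3 highest cells held 55.5% of the summed CPM of Slc11a2 over all cells. After thinning, at least 5 reads were found in 20 of 35 naive-like cells (57.1%, 95% interval 39.4% to 73.7%). In endoderm-like cells they were found in 11 of 13 (84.6%, 54.6% to 98.1%). The intervals overlap, and the difference between clusters was not tested. The highest Slc11a2 level, 492 CPM, stood in the endoderm-like cell 33, which had 0.617 CPM of Tfrc.

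The ferritin genes were high in every cell, with an SD over 48 cells on the log2 scale of 0.633 for Fth1 and 0.578 for Ftl1, compared with 2.14 for Tfrc. Fth1 was 566, 1146 and 2844 CPM in the lowest, median and highest naive-like cell, and 611, 1165 and 2924 CPM in the endoderm-like cells, so the clusters covered nearly the same range. Ftl1 was 2200, 4032 and 14870 CPM in naive-like cells and 3377, 5431 and 12988 CPM in endoderm-like cells. For Ftl1 the ranges again overlapped, with 11 of 13 endoderm-like cells above the naive-like median. The highest Ftl1 level was that of the naive-like cell 44. Light chain reads made up 57.8% to 93.5% of ferritin CPM per cell, with a median of 77.6%. Whether reads that fit several places were counted is not given in the sources used here, and ferritin genes have many near-identical processed copies in the mouse genome, so their absolute levels are uncertain.

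Slc40a1, which encodes the iron exporter ferroportin, was found in a minority of cells. It had 0 reads in 27 of 48 cells and at least 5 reads in 12 cells, of which 10 were naive-like and 2 endoderm-like. After thinning 12 of 48 cells (25.0%, 95% interval 13.6% to 39.6%) still held 5 reads. Where it was found it could be high: 6 cells had 50 CPM or more, with a highest level of 246 CPM in a naive-like cell and of 51.7 CPM in an endoderm-like cell. Both clusters contained cells with and without the transcript. The 3 highest cells held 61.6% of its summed CPM.

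Among the regulators, Ireb2 (iron regulatory protein 2, which is degraded when iron is plentiful) had at least 5 reads in all 48 cells. After thinning it had them in 47 of 48. Its levels were 1.99, 127 and 472 CPM in the lowest, median and highest naive-like cell and 2.92, 96.9 and 303 CPM in the endoderm-like cells, and 5 of 13 endoderm-like cells lay above the naive-like median. Aco1 (iron regulatory protein 1, which is a cytosolic aconitase when it holds an iron-sulphur cluster) was 0.110, 6.98 and 381 CPM in naive-like cells and 1.22, 85.9 and 343 CPM in endoderm-like cells. The ranges overlapped, and 10 of 13 endoderm-like cells lay above the naive-like median. After thinning, at least 5 Aco1 reads were found in 26 of 35 naive-like cells and in 12 of 13 endoderm-like cells.

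The next question was whether uptake and storage transcripts were related from cell to cell. The ratio of ferritin (Fth1 plus Ftl1) to Tfrc, each as CPM + 1, was 2.72, 14.2 and 833 in the lowest, median and highest naive-like cell, and 11.9, 49.9 and 9736 in the endoderm-like cells. The clusters overlapped. The lowest ratio was in cell 37, with the highest Tfrc (1074 CPM) and the lowest summed ferritin level (2925 CPM) of all cells. The highest ratio was in cell 33, which had 0.617 CPM of Tfrc and 15743 CPM of ferritin. In naive-like cells the SD of the log2 ratio was 1.61, beside 1.54 for log2 Tfrc and 0.504 for log2 ferritin alone. In endoderm-like cells these SDs were 3.01, 2.71 and 0.521, so the spread of the ratio was close to that of Tfrc in both clusters. With a pseudocount of 10 CPM in place of 1 the SD of the ratio was 1.43 in naive-like and 2.13 in endoderm-like cells, and the highest ratios are those of cells with under 1 CPM of Tfrc.

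Across the 35 naive-like cells Tfrc and summed ferritin showed no clear order. Spearman's rho was 0.0742 and Pearson's r was 0.0226, and without the 2 cells farthest from the Tfrc median rho was 0.0719 and r 0.0327. This rho lay at percentile 65.1 of the rhos of Tfrc with 11453 genes, which had a median of 0.00224 and ran from -0.299 to 0.295 between the percentiles 5 and 95. Its sign turned with each other scaling: it was -0.00924 with scran factors, -0.0154 with library size alone and -0.0384 with DESeq2 poscounts size factors. It was also negative in thinned cells (-0.0389) and with genes detected per cell regressed out (-0.0529). With the ferritin genes taken singly, rho was -0.106 for Fth1 and 0.0605 for Ftl1. These too moved with the setting: Fth1 ran to -0.213 with genes detected regressed out, -0.216 with library size alone, -0.228 with scran factors and -0.298 in thinned cells. Ftl1 was between -0.0538 and -0.00980 in these 4 settings and with poscounts factors. The correlations are descriptions over cells of 1 group, which share the scaling of each library, and carry no p-value.

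Across the 13 endoderm-like cells the values leaned to the negative. Spearman's rho of Tfrc with summed ferritin was -0.231 and r was -0.504, and without the 2 cells farthest from the Tfrc median they were -0.164 and -0.358. For Fth1 rho was -0.484, at percentile 6.18 of 10706 genes. The rhos of these genes with Tfrc ran from -0.511 to 0.514 between the percentiles 5 and 95. Summed ferritin lay at percentile 24.1, and Ftl1, with a rho of -0.132, at percentile 34.7. The number of genes detected per cell moved with Fth1 in these cells (rho -0.830) and with Tfrc in the other direction (rho 0.335). With genes detected regressed out, rho was -0.209 for Tfrc with Fth1 and -0.0879 for Tfrc with summed ferritin. What part the number of genes detected has in these values was not tested.

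**Figure D2:**
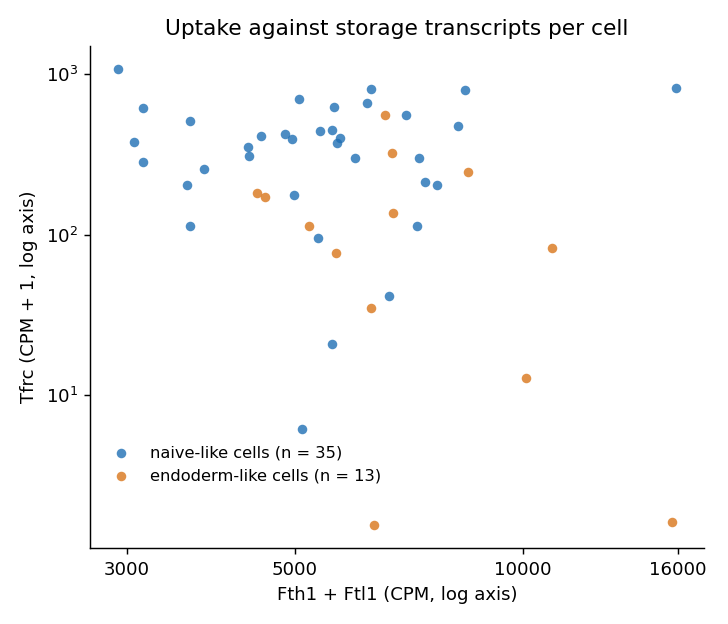
Tfrc (CPM + 1) against the summed level of Fth1 and Ftl1 (CPM) per cell, both on log axes, for 35 naive-like and 13 endoderm-like cells. Ferritin spans 2925 to 15908 CPM, whereas Tfrc spans 0.547 to 1074 CPM, and cells with similar ferritin differ widely in Tfrc.

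Among all 21 pairs of members, rho ran from -0.455 to 0.376 with a median of -0.0216 in naive-like cells, and from -0.484 to 0.522 with a median of 0.0636 in endoderm-like cells. The highest value in naive-like cells was that of the ferritin chains, Fth1 with Ftl1 (0.376, and 0.505 in endoderm-like cells). The size of this rho changed with the scaling: it was 0.250 and 0.110 with scran factors, 0.212 and 0.148 with library size alone, and 0.157 and 0.132 in thinned cells, in naive-like and endoderm-like cells in turn. Against the other genes tested it lay at percentile 97.9 in naive-like cells with the scaling used here and at percentile 81.3 in thinned cells. The lowest value in naive-like cells was Slc11a2 with Ireb2 at -0.455, which was 0.308 in endoderm-like cells. The uptake genes Tfrc and Slc11a2 had a rho of 0.189 in naive-like and of -0.275 in endoderm-like cells. Tfrc with Aco1 was 0.246 in naive-like cells and -0.341 in endoderm-like cells, the latter at percentile 14.9 of 10706 genes. This endoderm-like value depended on the setting. It was -0.764 without the 2 cells farthest from the Tfrc median and -0.0440 with genes detected regressed out. The differences between clusters were not tested.

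**Figure D3:**
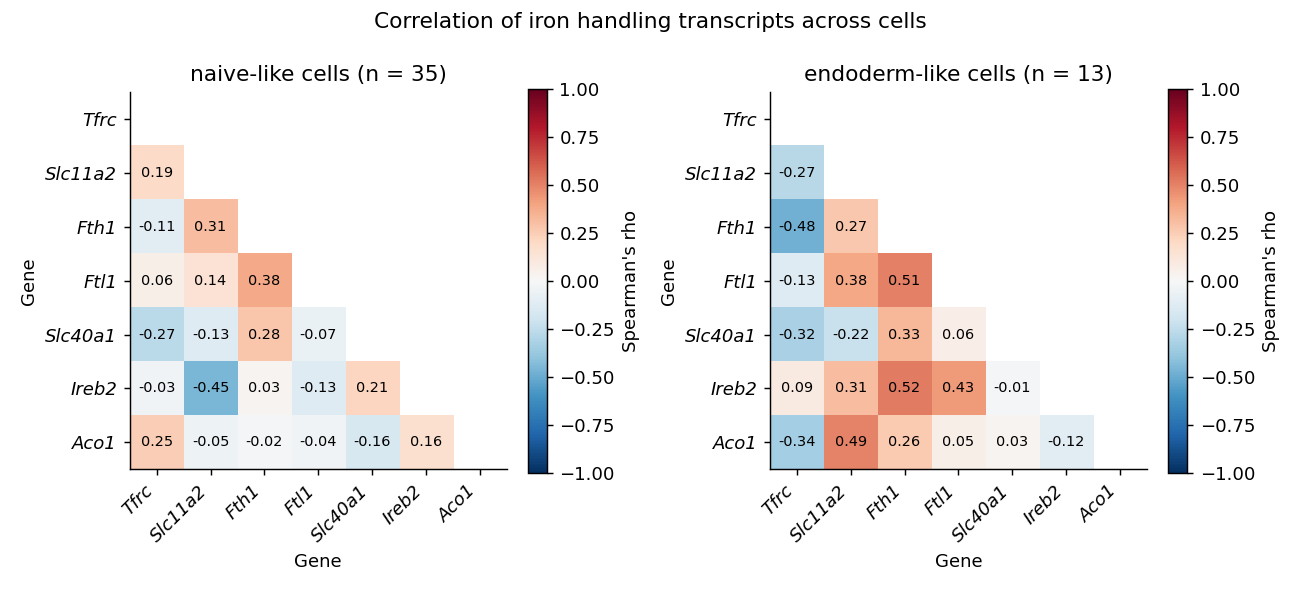
Spearman's rho of each of the 21 pairs of iron handling genes across 35 naive-like cells (left) and 13 endoderm-like cells (right), on a colour scale from -1 to 1. The Fth1 and Ftl1 pair is positive in both panels at 0.376 and 0.505, while Slc11a2 with Ireb2 changes sign between the panels.

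To ask which members varied more than genes of similar level, each gene's variance of log2(CPM + 1) was set against a trend over mean level. Of the 7 members only Tfrc passed, in a set in which 239 of 11746 genes (2.03%) were called. Its variance was 4.58 where the trend was 1.16 (scran, one-sided, Benjamini-Hochberg adjusted p = 2.44e-11), and it ranked 200 by variance above the trend. Within the 35 naive-like cells, where 1.75% of genes were called, Tfrc again was the only member to pass, with a variance of 2.36 against a trend of 0.686 (scran, adjusted p = 1.64e-08). Its rank by variance above the trend in these cells was 923 of 11454 genes. The other 6 members had adjusted p = 0.906 over all cells and 0.934 within naive-like cells by the same test. Slc11a2, Slc40a1 and Aco1 had larger variances than Tfrc, at 6.68, 5.52 and 7.64, but genes of their mean level had trend variances of 6.17, 4.09 and 5.64.

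The call of Tfrc was lost on another scale of variance. By the squared coefficient of variation, which weighs high values more, 6.22% of genes were called; Tfrc was not among them (scran, adjusted p = 0.445, and 0.475 within naive-like cells), and Slc11a2 was (adjusted p = 0.00124); within naive-like cells, where 6.57% of genes were called, Aco1 was (adjusted p = 0.00423). Tfrc passed under the other 9 alternatives run over all cells, with adjusted p between 2.31e-12 and 0.00156 (scran). The share of all genes called under these 9 is not given here.

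**Figure D4:**
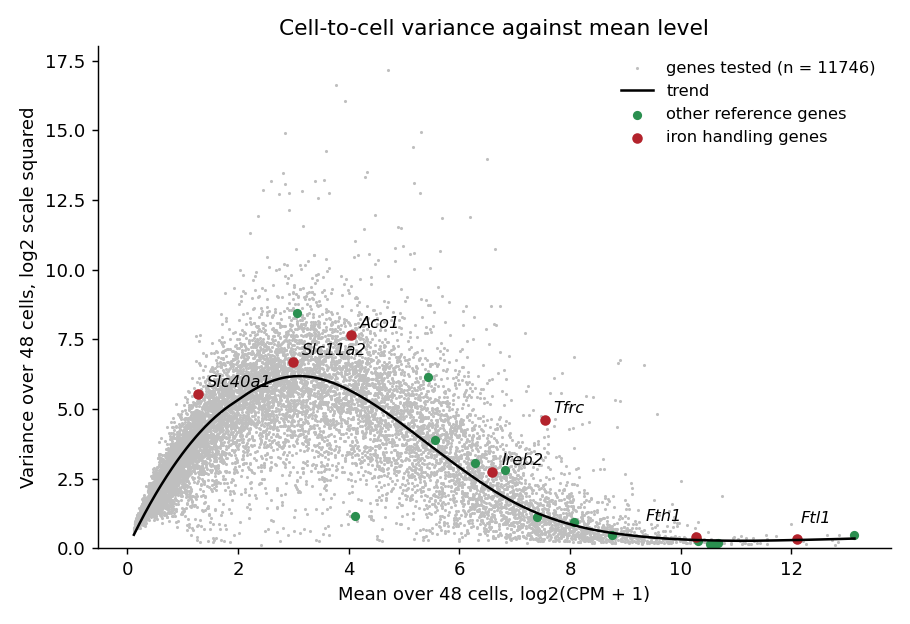
Variance over 48 cells of log2(CPM + 1) against its mean for 11746 genes (grey), with the fitted trend (line), the 7 iron handling genes (red, named) and 14 other genes often used as references (green). Tfrc, at a variance of 4.58, stands above the trend of 1.16, whereas Fth1 and Ftl1 lie near it.

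Tfrc is at times used as a reference gene for normalising expression. Of 15 such genes it was the only one called by the variance of log2 values, beside the background of 2.03%. By the squared coefficient of variation, with 6.22% of all genes called, Tfrc did not pass (scran, adjusted p = 0.445) and B2m (8.5e-05) and Actb (0.0371) did. Its SD over cells on the log2 scale was 2.14, compared with 0.373 for Rplp0 (a ribosomal protein), 0.411 for Gapdh (a glycolytic enzyme), 0.423 for Ywhaz (a 14-3-3 protein), 0.497 for Ppia (cyclophilin A) and 0.702 for Actb (actin). Gusb (beta-glucuronidase) and B2m (the light chain of class I histocompatibility molecules) had larger SDs of 2.90 and 2.48, without passing the test on log2 values.

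The genes most like each member by rho over naive-like cells were sought among 9876 genes tested in both clusters. For Tfrc they were 0610009B22Rik (0.636), Ttc32 (0.613), Mier3 (0.590), Ankrd13a (0.585) and Shq1 (0.576). In endoderm-like cells the same genes had rhos of -0.412, 0.00597, 0.335, 0.214 and -0.104 with Tfrc, and 3 of the 5 were at 0.00597 or below. No iron gene was among these 5. For Fth1 the list was Epn1 (0.676), Avpi1 (0.643), Csrp2 (0.634), 9230110C19Rik (0.626) and Romo1 (0.624), with rhos between -0.0385 and 0.352 in endoderm-like cells. For Ftl1 it was Cfl1 (0.742), Mif (0.725), Mir692-1 (0.699), Gm13139 (0.636) and Gm13251 (0.633). Of these, Cfl1 and Mir692-1 stayed positive in endoderm-like cells at 0.187 and 0.742, and the others were between -0.423 and -0.291.

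The Mir692-1 row shares sequence with Ftl1, and both are shown because the match bears on that likeness. The mature microRNA of this row (RefSeq, GRCm38.p6) has 21 bases, and the coding sequence of Ftl1 in GENCODE M21 holds all 21 of them. Capitals mark bases 2 to 8, the seed of the microRNA.
mmu-miR-692, chr17:6895259-6895279 (-): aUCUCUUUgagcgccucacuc
Ftl1, chr7:45458121-45458141 (-): aTCTCTTTgagcgcctcactc

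Over the hairpin, 99 of 109 bases (90.8%) matched Ftl1 at positions 713 to 821. The row had 4 to 40 reads per cell, 0.0533% of the reads of Ftl1 summed over cells. The longest run of identical bases in the hairpin was 35, so a read within it would fit both places, whereas a longer read could differ. How such reads were counted is not given in the sources used here. What part shared reads have in the rhos of this row with Ftl1 was not tested.

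The wider iron pathway was read from 8 lists with 86 genes, of which 85 had a row and 74 had enough reads. Of these 74, 2 were called (2.70%, beside 2.03% of all genes): Tfrc and Nubp2, which takes part in building cytosolic iron-sulphur clusters. Variance lay above the trend for 45 of 74 genes (60.8%, beside 50.6% of all genes tested), and the median of variance minus trend was 0.138, compared with 0.00990 over all genes tested. Nubp2 was 2.10, 273 and 697 CPM in the lowest, median and highest naive-like cell and 1.09, 136 and 560 CPM in the endoderm-like cells, with overlapping ranges (scran, Benjamini-Hochberg adjusted p = 0.00155 over all cells and 0.00598 within naive-like cells). By the squared coefficient of variation 3 of the 74 passed (4.05%, beside 6.22% of all genes), Slc11a2, Mms19 and Epas1, and Nubp2 did not (scran, adjusted p = 0.890).

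In the list of the transferrin cycle and iron uptake 1 of 13 tested genes was called, Tfrc. Next by variance above trend came the metalloreductase family member Steap1 (naive-like median 39.6 CPM, endoderm-like 0.115 CPM), which did not pass (scran, adjusted p = 0.906). Transferrin itself (row Trf) had at least 5 reads in 8 cells, and Steap3, the endosomal ferrireductase of red cell precursors, in 7 cells. Of the ferritin and chaperone list 0 of 5 tested genes were called. Pcbp2, which delivers iron to ferritin, had a median of 281 CPM, and Pcbp1, with the same role, 103 CPM, both with at least 5 reads in all 48 cells.

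In the export list 0 of 5 tested genes were called. Abcg2, a transporter of haem and other substrates, had a median of 51.7 CPM over all cells, and the haem exporter Flvcr1 (row Mfsd7b) had at least 5 reads in 19 cells. Of the ferroxidases that act with ferroportin, ceruloplasmin (Cp) had 0 reads in the 48 cells, and hephaestin (Heph) had at least 5 reads in 2 cells. Of the list on control of the regulatory proteins 0 of 5 were called, with Aco1, the ubiquitin ligase scaffold Cul1 (median 138 CPM) and Ireb2 the farthest above the trend; Fbxl5, the iron-sensing subunit that marks Ireb2 protein for degradation, had medians of 94.4 CPM in naive-like and 52.5 CPM in endoderm-like cells.

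In the hepcidin list 0 of 4 tested genes were called. Hepcidin (Hamp), the hormone that removes ferroportin from the surface, had at most 4 reads in a cell. Bmp2 and Bmp6, ligands upstream of hepcidin in the liver, had at least 5 reads in 11 and 7 of 13 endoderm-like cells and in 1 naive-like cell each, and Hfe2 (hemojuvelin, a co-receptor for these ligands) in 5 cells. Of the haem list 0 of 14 were called, with Pgrmc1, Hmox1 and Alad the farthest above the trend; Hmox1, which breaks haem down and frees its iron, had a median of 61.1 CPM. Of the mitochondrial and iron-sulphur list 1 of 23 was called, Nubp2; by the squared coefficient of variation it was Mms19 instead, a factor that hands clusters to target proteins (scran, adjusted p = 0.0316).

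Among 5 tested genes of the list of other mRNAs with an iron-responsive element 0 were called. The hypoxia factor Epas1 had medians of 0.927 CPM in naive-like and 113 CPM in endoderm-like cells, and at least 5 reads in 20 of 35 and 13 of 13 cells. By the squared coefficient of variation Epas1 did pass (scran, adjusted p = 1.22e-12), as did 6.22% of all genes. Cdc42bpa, a kinase with an element in some of its transcripts, had medians of 33.8 and 10.2 CPM, and App, the amyloid precursor, of 0.140 and 44.7 CPM, in naive-like and endoderm-like cells.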

How the data were processed

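Messenger RNA of 48 single cells was sequenced on 2 lanes each. The authors deposited raw read counts per gene; the tools are STAR 2.3.1z12, Subread 1.4.5-p1 and featureCounts on build mm9, per the submitters' processing notes, which assign no roles. The SMARTer kit does not mark strand, so antisense reads cannot be told apart. Doublets were not called.

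Lanes were summed per cell (4408953 to 9767245 reads). Counts were scaled with edgeR 4.0.16 (TMMwsp) to CPM and taken as log2(CPM + 1). Variance was tested with scran 1.30.0 (modelGeneVar, R 4.3.3) as a one-sided test. Genes averaging 10 or more reads per cell entered, p-values were Benjamini-Hochberg adjusted over all of them, and the threshold was 0.05. Ward clustering used 5 principal components from the 500 genes farthest above the variance trend, iron genes left out; the 2 clusters stayed the same with iron genes kept or with 1000 genes. Detection meant at least 5 reads after thinning to 4408953 reads. List genes were matched by symbol or synonym; Ftl2 was not used here. The members and gene lists were chosen with earlier results of these data known. Named were all members, called genes of each list or else up to 3 with the largest variance above trend, and the 5 genes most like Tfrc, Fth1 and Ftl1; Steap1, Trf, Steap3, Pcbp1, Cp, Heph, Hamp, Hmox1, Fbxl5, Bmp6, Mms19 and the reference genes were added after their values were seen. Alternatives covered scaling (scran, library size, DESeq2 1.42.0), filters, pseudocount, depth, lanes, the scale of variance, clusters and extreme cells.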

Additional observations from a re-analysis of the deposited data

How the results depend on the processing

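Over all cells, and within the naive-like cells, 1 member was called variable under each alternative run. By the squared coefficient of variation that member was Slc11a2 over all cells and Aco1 within naive-like cells, in place of Tfrc. By this measure Tfrc had adjusted p = 0.445 and 0.475 (scran), with 6.22% and 6.57% of all genes called. The share of all genes called under the other alternatives is not given here. The Tfrc to summed ferritin rho in naive-like cells (0.0742) turned negative with each other scaling. It was -0.00924 with scran factors, -0.0154 with library size alone and -0.0384 with DESeq2 poscounts size factors. In thinned cells it was -0.0389, and with genes detected regressed out -0.0529. In endoderm-like cells the value (-0.231) was -0.504 as Pearson's r and -0.0879 with genes detected regressed out. The SD of the log2 ratio of Tfrc to ferritin in naive-like cells (1.61) was 1.43 with a pseudocount of 10 CPM; in endoderm-like cells (3.01) it was 2.13 and over all cells (2.36) 1.89. The cause of these changes was not tested. Mean levels by cluster moved by less than 1 SD over cells with each other scaling. Many cells hold few reads of Slc40a1, Slc11a2 and Aco1, which limits what can be said of them. The SD between lanes on the log2 scale was largest among the members for Slc11a2 (0.298) and Aco1 (0.251). For Slc40a1 it was 0.125, beside 0.112 for Tfrc. No paired analysis was possible because all cells form a single group.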
